A study of Homo sapiens with 16 samples.

Results

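The clustered histone genes are the replication-dependent genes that lie side by side in 4 human gene clusters and encode the linker histone H1 and the core histones H2A, H2B, H3 and H4. They were taken by symbol, as every gene of the deposited table named HIST1H to HIST4H, without the 13 symbols that end in PS and mark pseudogenes, which left 76 of 60669 genes. Of these, 6 are H1, 17 H2A, 23 H2B, 15 H3 and 15 H4 genes, and 70 are annotated as protein-coding. By cluster, 55 belong to cluster 1 on chromosome 6, 16 to cluster 2 and 4 to cluster 3 on chromosome 1, and 1 to cluster 4 on chromosome 12. RNA was sequenced from MOLM-13, an established line of human acute myeloid leukaemia cells, after 4 days in 1 of 4 treatments with 4 libraries each. These were both inhibitors together (the combination), an EZH2 inhibitor at 1 µM (EZH2i), a PRMT5 inhibitor at 1 µM (PRMT5i), and 0.005% DMSO as the control. The labels name neither compound, all groups are the same cell line, and no genotype differs between them. The labels do not say if the 4 libraries of a group came from separate cultures, so p-values measure the spread between these libraries, which may be technical.

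Each round of DNA replication needs new histones in bulk, and these genes supply them in S phase. Most of their messages end in a short stem-loop in place of a poly(A) tail. The stem-loop is bound by SLBP, it is needed for cutting the message at its 3′ end with the help of the U7 small nuclear RNA, and it ties the life of the message to replication. Their transcription depends on NPAT, a target of cyclin E with CDK2, at the histone locus body. EZH2 is the enzyme of polycomb repressive complex 2 that methylates a lysine of histone H3, and PRMT5 methylates arginines on histone tails, splicing factors and other proteins. Some clustered genes also make transcripts with a poly(A) tail. The labels do not say if libraries were selected for poly(A), so the share of tailed transcripts behind each value is unknown.

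Library totals were 31142456 to 52885899 expected counts. DMSO replicate 1 stood apart by its scaling factor, 0.861 against 0.959 to 1.07 in the other 15 libraries, and counts of called histone genes without it are given beside the results. All 10 myeloid markers were tested, with summed levels of 2536 to 2712 CPM (counts scaled to a common library total) in the combination, 1930.45 to 2129 CPM with EZH2i, 2882 to 3172 CPM with PRMT5i and 1986 to 2629 CPM with DMSO. The 6 markers of B cells and the 8 of epithelial cells and fibroblasts were each under 1 CPM in every library, with CDH1 and KRT14 at 0 throughout. The B cell markers summed to 1.27 to 1.59 CPM in the combination, 0.712 to 1.26 CPM with EZH2i, 1.34 to 1.96 CPM with PRMT5i and 0.693 to 1.16 CPM with DMSO, and 1 of their 4 tested genes rose with PRMT5i against DMSO. The epithelial and fibroblast markers summed to 0.669 to 1.02 CPM in the combination, 0.734 to 1.31 CPM with EZH2i, 0.303 to 0.428 CPM with PRMT5i and 0.138 to 0.468 CPM with DMSO. Both tested genes of that list rose with EZH2i against DMSO by edgeR, LUM by 2.88 and COL1A1 by 1.41 on the log2 scale, 1 of them rose in the combination against DMSO, and neither passed with PRMT5i. The part of these lists in the histone values was not tested. Of 8 markers of T and NK cells, 5 were under 1 CPM in every library, with CD2 at 0. The list summed to 46.9 to 53.1 CPM in the combination and 56.6 to 73.7 CPM with EZH2i. It summed to 43.2 to 45.8 CPM with PRMT5i and 47.0 to 61.3 CPM with DMSO. With PRMT5i 1 of the 4 tested genes of this list was higher and 2 were lower, and the part of the list in the histone values was not tested. For the targets' own messages, PRMT5 averaged 119 ± 3.35 CPM with PRMT5i and 116 ± 10.3 CPM with DMSO, and EZH2 averaged 48.3 ± 0.464 CPM with EZH2i and 37.6 ± 10.7 CPM with DMSO, where replicate 1 was lowest at 21.5 CPM (SD, n = 4 each), and neither of these differences passed the test.

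The stem-loop is the feature that sets these messages apart, so its versions in the studied genes are shown first. A 16-base pattern of the stem-loop, with most loop and stem bases fixed and the variable ones left free, was searched on the transcript strand of the GENCODE release 29 transcripts. It was found in 33 of 75 annotated members (44%) and in 47 of 58646 other genes (0.0801%). Of 36 protein-coding members whose annotated transcript runs at least 25 bases past the stop codon, 31 held it. Of the 39 coding members without a match, 34 have no transcript annotated that far, so for them the missing match describes the annotation. The 5 versions are 16 bases long, and capitals mark bases that differ from the most frequent version.
Version 1, in 18 genes (6 H2A, 9 H2B, 3 H3): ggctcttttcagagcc
Version 2, in 5 genes (3 H2B, 2 H3): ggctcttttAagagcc
Version 3, in 5 genes (all H4): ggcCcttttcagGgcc
Version 4, in 3 genes (all H4): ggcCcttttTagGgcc
Version 5, in 2 genes: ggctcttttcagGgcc
The H4 genes with a match carry versions 3 and 4, and no H2A, H2B or H3 gene does. HIST3H2A and HIST3H2BB carry version 1, HIST4H4 and HIST1H4J carry version 3, and HIST1H4I and HIST2H4A carry version 4.

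The promoters of 65 members were found in the RefSeq table of GRCh38.p14. A window of 250 bases before to 50 bases after the annotated start was searched on both strands for 5 motifs. These were TATAAA for the box where the basal factors bind, CCAAT for the box of that name, ATTTGCAT for the octamer read by OCT1, TTTNGCGC as a motif of the E2F type, and GGTCCG as the core of site II of H4 genes, which HINFP binds. The matches may overlap one another. TATAAA was in 66.2% of the member promoters, against 11.5% of all 35116 promoters in the table. CCAAT was in 84.6% of the member promoters, against 34.6% of all, and in 100% of the H1, H2A, H2B and H3 promoters but 23.1% of the H4 promoters. ATTTGCAT was in 68.8% of H2A and 77.8% of H2B promoters, in 0% of the other types and in 1.77% of all promoters. Windows of back-to-back H2A and H2B genes overlap, as for HIST1H2AG and HIST1H2BJ, so the same match can count for both types. TTTNGCGC was in 18.5% of the member promoters and 1.79% of all. GGTCCG was in 92.3% of H4 promoters and 11.3% of all promoters. The 5 stretches of 250 bases before the start given here are from GRCh38.p14, 5′ to 3′ in the direction of the gene, with any of these motifs in capitals. HIST3H2BB (chr1:228457853-228458102, plus strand) fell most with PRMT5i and most of this stretch also lies before the start of HIST3H2A on the other strand. HIST4H4 (chr12:14771132-14771381, minus strand) is the coding member that did not pass for PRMT5i, and HIST2H4A (chr1:149832407-149832656, plus strand) is the H4 gene that fell most. HIST1H1B (chr6:27867589-27867838, minus strand) is an abundant linker histone gene, and HIST1H2BJ (chr6:27132796-27133045, minus strand) carries the octamer.
HIST3H2BB: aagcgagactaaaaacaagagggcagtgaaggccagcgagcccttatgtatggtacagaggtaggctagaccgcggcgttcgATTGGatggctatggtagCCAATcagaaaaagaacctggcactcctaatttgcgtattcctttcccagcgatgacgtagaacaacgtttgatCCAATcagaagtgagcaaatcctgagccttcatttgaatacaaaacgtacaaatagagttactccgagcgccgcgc
HIST4H4: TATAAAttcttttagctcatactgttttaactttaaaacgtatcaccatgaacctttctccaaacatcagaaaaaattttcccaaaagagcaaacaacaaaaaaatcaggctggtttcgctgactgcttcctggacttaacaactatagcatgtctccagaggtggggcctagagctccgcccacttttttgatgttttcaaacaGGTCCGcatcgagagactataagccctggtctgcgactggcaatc
HIST2H4A: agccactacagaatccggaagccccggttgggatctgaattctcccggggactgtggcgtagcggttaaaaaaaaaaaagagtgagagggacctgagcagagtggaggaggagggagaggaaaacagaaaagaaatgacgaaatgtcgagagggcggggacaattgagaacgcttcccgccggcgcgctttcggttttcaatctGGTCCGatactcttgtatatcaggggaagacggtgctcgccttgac
HIST1H1B: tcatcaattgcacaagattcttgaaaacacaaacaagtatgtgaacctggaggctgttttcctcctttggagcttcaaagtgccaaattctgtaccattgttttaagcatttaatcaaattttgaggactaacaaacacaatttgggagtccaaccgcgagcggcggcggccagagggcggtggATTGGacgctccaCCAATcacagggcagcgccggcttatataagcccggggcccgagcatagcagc
HIST1H2BJ: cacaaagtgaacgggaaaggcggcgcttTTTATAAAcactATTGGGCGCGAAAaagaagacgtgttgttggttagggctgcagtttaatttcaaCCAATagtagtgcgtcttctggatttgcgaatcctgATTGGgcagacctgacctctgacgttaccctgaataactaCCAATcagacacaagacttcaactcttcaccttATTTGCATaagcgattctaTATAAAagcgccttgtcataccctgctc
The HIST3 stretch holds 3 CCAAT motifs, written ATTGG where they lie on the other strand. HIST4H4 and HIST2H4A both hold GGTCCG, and the only TATAAA in the HIST4H4 stretch is at its far end. HIST1H1B holds a pair of CCAAT motifs close together. A match describes the letters in the window and was not tested as a binding site.

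Of the 76 members, 62 had enough counts to be tested: 5 of 6 H1, 16 of 17 H2A, 18 of 23 H2B, 10 of 15 H3 and 13 of 15 H4 genes. The 14 others are HIST1H1T, HIST1H2AA, HIST1H2BA, HIST1H2BB, HIST1H2BI, HIST1H3C, HIST1H3E, HIST1H3G, HIST1H4F, HIST1H4G, HIST2H2BA, HIST2H2BB, HIST2H3DP1 and HIST3H3. HIST1H2AA and HIST1H4F had 0 counts in all 16 libraries, and 10 of the 14 had no more than 3 counts in any library. HIST1H1T, HIST1H2AA, HIST1H2BA and HIST3H3, known mainly from testis, are all among these 14. Per kilobase of exon, the tested members with an annotated length had a median of 173 CPM with DMSO (61 genes). HIST1H4J was highest at 1667 CPM per kb, followed by HIST1H1B at 862, HIST1H3B at 763 and HIST1H1C at 699 CPM per kb. HIST2H4B, HIST1H1A and HIST1H2BE were near the low end at 4.94, 3.62 and 0.869 CPM per kb, and HIST2H2BD was lowest at 0.213 CPM per kb. Annotated lengths include long alternative ends for some genes, such as 2364 bases for HIST3H2BB, which lowers a level per kilobase. RSEM divided reads between similar members: 22 tested members had whole numbers in all libraries and 40 did not. Of the tested members, 7 share over 25% of their exon bases with another gene. HIST1H2AK lies wholly under HIST1H2BN on the opposite strand, and since no source used here gives the strand setting of the counting, reads of such pairs cannot be told apart.

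The histone genes as a group took a much smaller share of the library under PRMT5i. All 76 members together held 0.465%, 0.402%, 0.505% and 0.476% of the counts in the combination libraries, 1.14%, 1.09%, 0.951% and 0.803% in the EZH2i libraries, 0.346%, 0.343%, 0.311% and 0.276% in the PRMT5i libraries, and 1.01%, 1.12%, 0.969% and 0.842% in the DMSO libraries. The PRMT5i libraries were lowest without overlap, the combination libraries came next without overlap, and the EZH2i and DMSO libraries overlapped. Mean shares were 0.462 ± 0.0434% in the combination, 0.997 ± 0.152% with EZH2i, 0.319 ± 0.0325% with PRMT5i and 0.984 ± 0.114% with DMSO (SD, n = 4 each), so the PRMT5i mean was 32.4% and the combination mean 47.0% of the DMSO mean. In bulk RNA, fewer cells in S phase and less histone RNA per cell cannot be told apart. By type, the PRMT5i mean was 31.3% of the DMSO mean for H1, 33.1% for H2A, 32.3% for H2B, 29.4% for H3 and 35.0% for H4. The combination mean was 48.5%, 46.6%, 46.3%, 46.5% and 47.6% of the DMSO mean in the same order of types. The mix of types moved little: H3 genes made up 15.6 ± 0.287% of all member counts with PRMT5i and 17.1 ± 1.06% with DMSO, and H4 genes made up 22.4 ± 0.267% with PRMT5i and 20.9 ± 0.554% with DMSO. Cluster 2 genes made up 18.01 ± 0.564% of member counts with PRMT5i and 21.2 ± 1.28% with DMSO, and HIST4H4 alone made up 0.632 ± 0.0288% with PRMT5i and 0.223 ± 0.071% with DMSO.

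**Figure D1:**
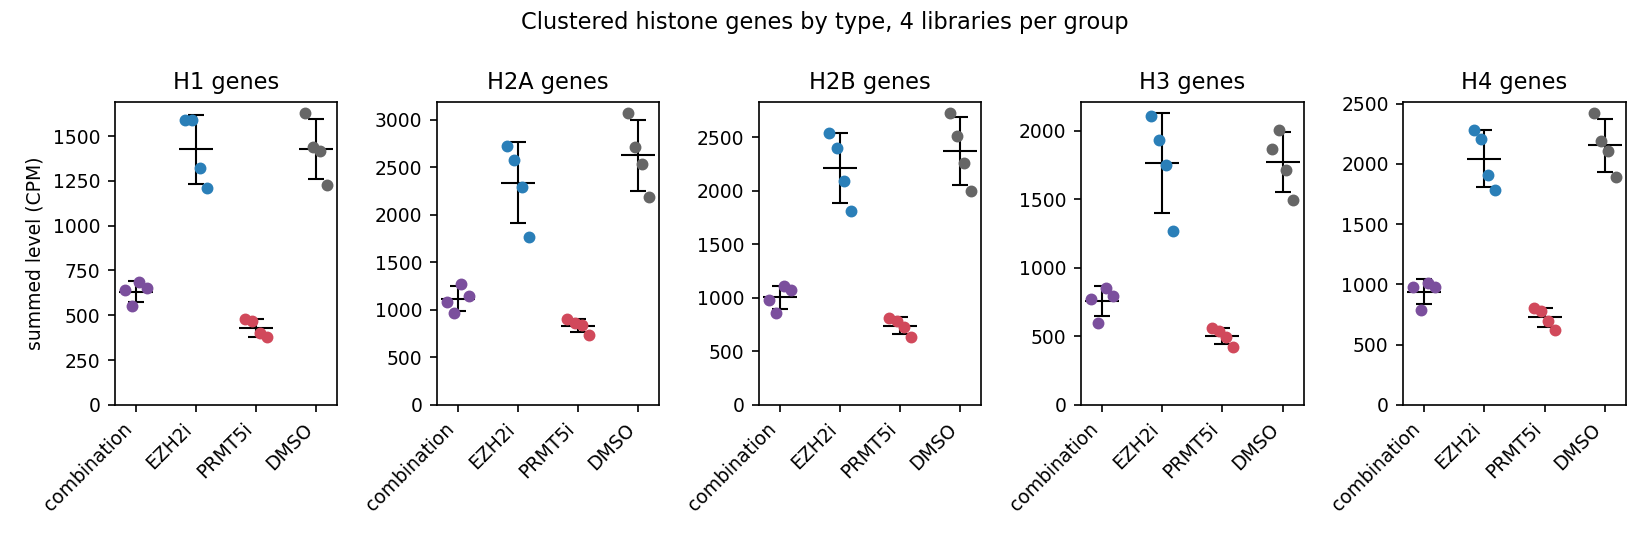
Summed level of all members of each histone type in CPM (vertical axes from 0) in each of 4 libraries per treatment; points are libraries and black marks are mean ± SD. The combination libraries lie above all PRMT5i libraries for H1, H2A, H2B and H3 (H3 at 600.1 to 856 CPM in the combination, 422 to 558 CPM with PRMT5i and 1493 to 2009 CPM with DMSO), while for H4 the lowest combination library (784 CPM) is below the highest PRMT5i library (805 CPM).

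EZH2i against DMSO asked what EZH2 inhibition alone does to these genes. Of 62 tested members, 2 were lower and 0 were higher at an adjusted p of 0.05, where 7.6% of all 16555 tested genes passed (4.11% higher and 3.49% lower). Both lie in cluster 3, where HIST3H2A and HIST3H2BB face away from each other with 233 bases between their annotated starts. HIST3H2BB (ENSG00000196890.4, an H2B gene of 1 exon block, GRCh38 chromosome 1, 228458107 to 228460470, plus strand) had 10.8, 8.45, 9.94 and 7.88 CPM with EZH2i, against 19.1, 14.5, 13.8 and 12.4 CPM with DMSO. HIST3H2A (ENSG00000181218.5, an H2A gene of 1 exon block, 228456979 to 228457873, minus strand) had 6.29, 5.07, 6.01 and 5.11 CPM with EZH2i, against 9.13, 8.62, 8.67 and 6.93 CPM with DMSO. In both genes all EZH2i libraries were below all DMSO libraries. HIST3H2BB fell by 0.68 (log2, SE 0.16, adjusted p = 0.0169 by edgeR's quasi-likelihood test) and HIST3H2A fell by 0.57 (SE 0.13, adjusted p = 0.0147). Neither passed when the model held the compared groups alone (adjusted p = 0.0831 for both), and HIST3H2BB did not pass without EZH2i replicate 2 (adjusted p = 0.0523). The third tested gene of that cluster, the pseudogene HIST3H2BA, had a log2 difference of −0.73 (SE 0.49) and did not pass.

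The other members differed little between EZH2i and DMSO. The median log2 fold change over the 62 tested members was −0.07, with 17 above 0, and over all tested genes it was −0.01. In edgeR 5 of the 62 had an unadjusted p under 0.05, where 4467 of all 16555 tested genes did. The H1 gene HIST1H1B had 664, 671, 570 and 523 CPM with EZH2i, against 662, 597, 582 and 507 CPM with DMSO, and its log2 fold change was 0.05 (SE 0.11). The groups overlapped. With scaling by total counts alone the median log2 fold change of all genes was 0.09 for EZH2i and 0.13 for the combination against DMSO, and the count of members called for EZH2i was 2 there as well. Without DMSO replicate 1 the count was again 2, where 875 of 16831 tested genes passed. The share called over all tested genes depended on the libraries and the fit. It was 4591 of 16880 without DMSO replicate 2 and 135 of 15447 with the compared groups alone. The count of members called was 1 to 3 when single libraries were left out.

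PRMT5i against DMSO asked what PRMT5 inhibition alone does. Of 62 tested members, 59 fell and 0 rose, where 35.3% of all tested genes passed (17.1% higher and 18.3% lower). The median log2 fold change over the 62 was −1.73, against −0.00 over all tested genes, 56 members were lower by at least 1 on the log2 scale, and 10 by at least 2. All 59 had every PRMT5i library below every DMSO library, which is no separate evidence, since the same libraries gave the calls. Neither these sizes of change nor this separation was counted over all tested genes. By type, 5 of 5 H1, 16 of 16 H2A, 16 of 18 H2B, 10 of 10 H3 and 12 of 13 H4 genes fell, with medians of −1.65, −1.79, −1.75, −1.82 and −1.45. The 45 tested genes of cluster 1 all fell in this fit. Without DMSO replicate 1 the count was 60, where 5769 of 16831 tested genes passed.

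**Figure D2:**
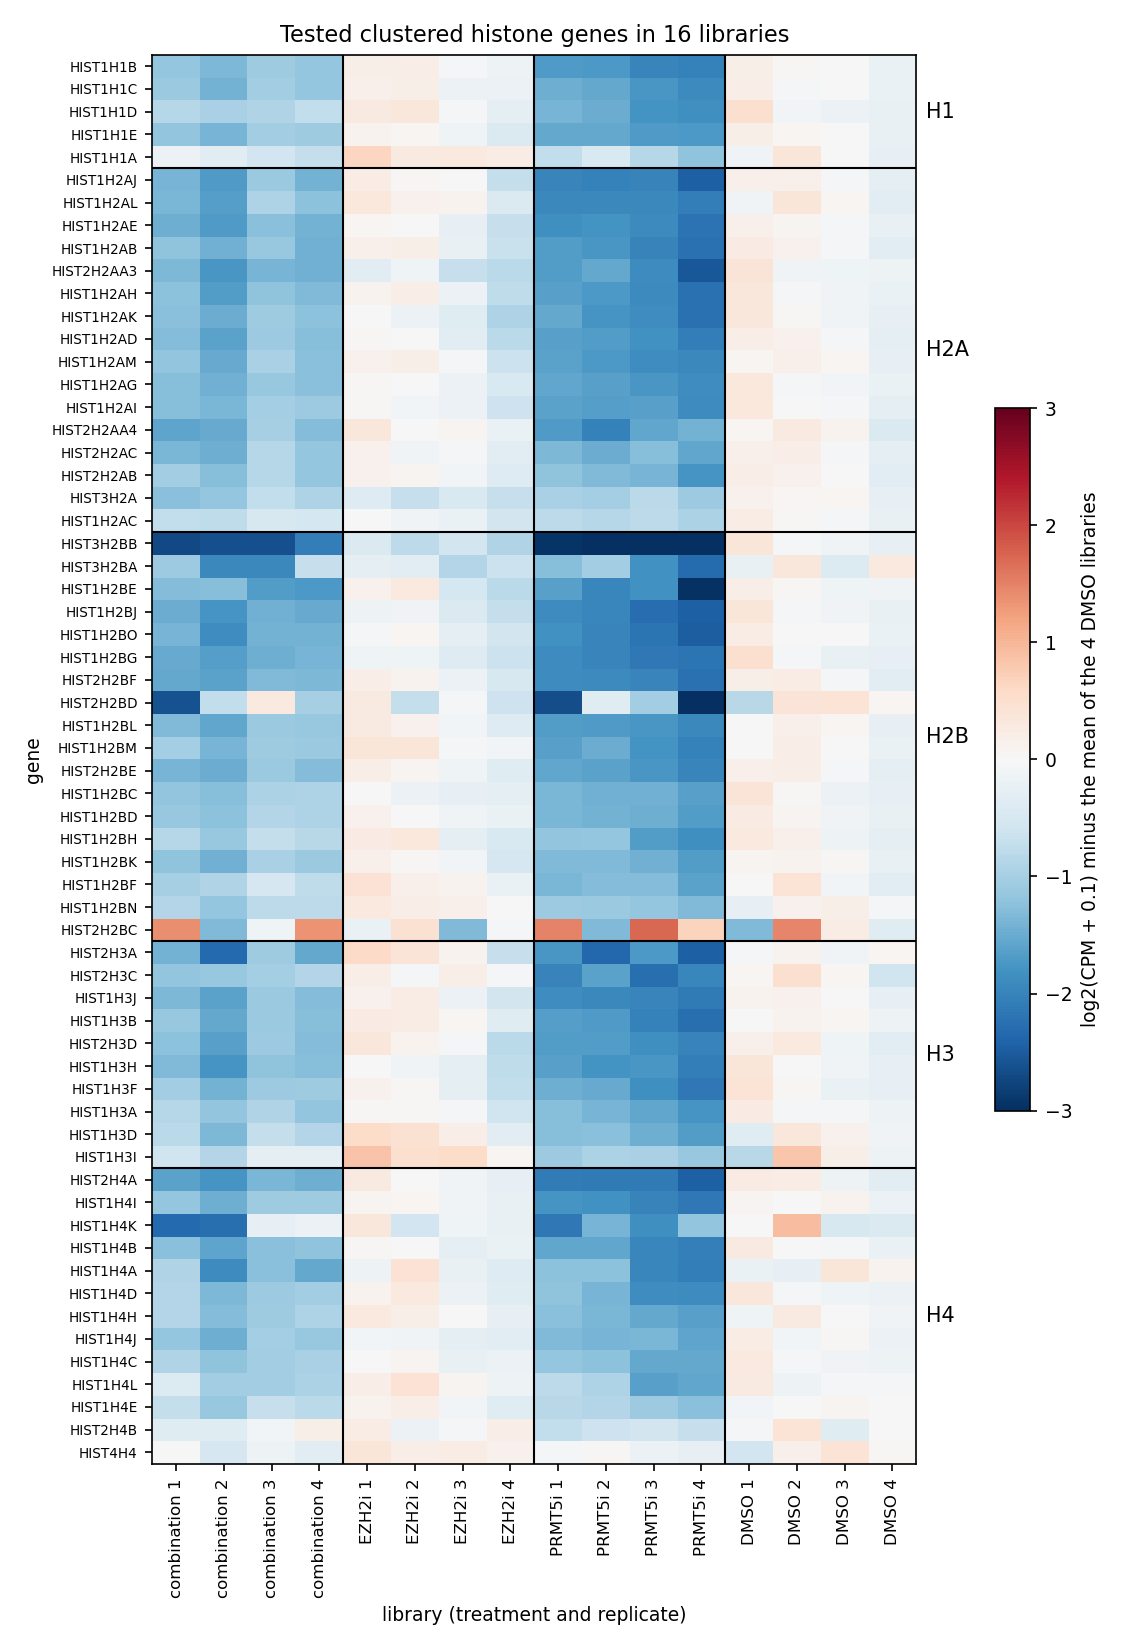
Each row is 1 of the 62 tested histone genes, grouped by type and ordered by its fold change with PRMT5i, and each column 1 of 16 libraries; colour gives log2(CPM + 0.1) minus the gene's mean over the DMSO libraries. The PRMT5i columns are the darkest blue in nearly all rows, with medians by type of −1.45 to −1.82, and HIST4H4 is close to the DMSO level in most libraries.

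The linker histone genes fell together. HIST1H1B (ENSG00000184357.4, chromosome 6, 27866849 to 27867529, minus strand, 1 exon block) had 181, 178, 147 and 143 CPM with PRMT5i, against 662, 597, 582 and 507 CPM with DMSO. All PRMT5i libraries were far below all DMSO libraries, and its log2 fold change was −1.86 (SE 0.11, adjusted p = 7.71e-09 by edgeR's quasi-likelihood test). HIST1H1C, a linker gene that also makes tailed transcripts, had 160, 153, 133 and 119 CPM with PRMT5i, against 516, 439, 452 and 387 CPM with DMSO. It fell by 1.67 (SE 0.13), and HIST1H1E fell by 1.63 (SE 0.12) to 110 ± 7.91 CPM with PRMT5i, against 342 ± 39.2 CPM with DMSO (SD, n = 4 each). HIST1H1A, a linker gene of low level here, fell least among them: it had 1.34, 1.67, 1.24 and 0.945 CPM with PRMT5i, against 2.13, 2.99, 2.32 and 1.93 CPM with DMSO, and fell by 0.84 (SE 0.19, adjusted p = 0.00276 in edgeR).

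Among H2A and H2B genes, whose products pair in the nucleosome, the falls spread more widely. HIST1H2AG averaged 149 ± 13.7 CPM with PRMT5i and 487 ± 80.8 CPM with DMSO (log2 fold change −1.71, SE 0.13), and HIST1H2AI averaged 102 ± 8.95 CPM with PRMT5i and 332 ± 57.3 CPM with DMSO (−1.71, SE 0.14). HIST1H2AC, which also makes tailed transcripts, had 154, 147, 154 and 136 CPM with PRMT5i, against 310, 271, 257 and 229 CPM with DMSO, and fell by 0.85 (SE 0.12, adjusted p = 2.53e-05 in edgeR). Its divergent neighbour HIST1H2BC fell by 1.497 (SE 0.13). HIST1H2BD and HIST1H2BK fell by 1.49 (SE 0.11) and 1.45 (SE 0.14). HIST1H2BJ fell by more, 2.15 (SE 0.16), to 44.4 ± 8.09 CPM with PRMT5i, against 197 ± 37.3 CPM with DMSO. HIST1H2BE, at 0.481 ± 0.198 CPM with PRMT5i and 2.25 ± 0.254 CPM with DMSO, fell by 2.19 (SE 0.30), and it shares 28.2% of its exon bases with another gene.

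The H3 and H4 genes supply the core tetramer. HIST1H3B fell by 1.90 (SE 0.15), to 84.2 ± 15.8 CPM with PRMT5i, against 313 ± 23.3 CPM with DMSO, and HIST1H3H fell by 1.82 (SE 0.17). HIST1H3I had 36.7, 40.8, 39.7 and 35.5 CPM with PRMT5i, against 44.1, 139, 88.7 and 70.2 CPM with DMSO, where replicate 1 was lowest, and it fell by 1.16 (SE 0.25). HIST2H4A fell most among H4 genes: it had 124, 122, 122 and 96.4 CPM with PRMT5i, against 625, 612, 477 and 424 CPM with DMSO, and fell by 2.21 (SE 0.15, adjusted p = 1.59e-08 in edgeR). HIST1H4J, the member with the highest level per kilobase, had 246, 236, 239 and 206 CPM with PRMT5i, against 720, 580, 638 and 549 CPM with DMSO, and fell by 1.43 (SE 0.11). HIST1H4C fell by 1.37 (SE 0.12) and HIST1H4E by 1.00 (SE 0.13).

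Clusters 3 and 4 hold the member that fell most and one that did not pass. HIST3H2BB had 1.83, 1.44, 1.64 and 1.34 CPM with PRMT5i, against 19.1, 14.5, 13.8 and 12.4 CPM with DMSO. Its log2 fold change was −3.25 (SE 0.18, adjusted p = 2.66e-09 by edgeR's quasi-likelihood test), the largest fall among the 62. Its partner HIST3H2A had 4.14, 4.06, 4.68 and 3.85 CPM with PRMT5i, against 9.13, 8.62, 8.67 and 6.93 CPM with DMSO, and fell by 0.99 (SE 0.13, adjusted p = 1.57e-05). The pseudogene HIST3H2BA, at 0.0712 ± 0.063 CPM with PRMT5i and 0.406 ± 0.127 CPM with DMSO, fell by 2.39 (SE 0.57), and HIST3H3 was not tested. HIST4H4 (ENSG00000197837.3, chromosome 12, 14767999 to 14771131, minus strand, 3 exon blocks), the lone gene of cluster 4, had 21.5, 22.5, 19.3 and 18.4 CPM with PRMT5i, against 14.6, 24.2, 29.1 and 22.2 CPM with DMSO. The groups overlapped, and its log2 fold change of −0.14 (SE 0.16) did not pass in edgeR (adjusted p = 0.517). The value depends on single DMSO libraries. Without replicate 1, the lowest DMSO library, the fold change was −0.32 (adjusted p = 0.0493 in edgeR). Without replicate 3, the highest DMSO library, it was 0.0034 and did not pass. The other members that did not pass are the scarce HIST2H2BC, with 0.41 ± 0.328 CPM with PRMT5i and 0.22 ± 0.258 CPM with DMSO, and the pseudogene HIST2H2BD, with 0.218 ± 0.256 CPM with PRMT5i and 0.769 ± 0.293 CPM with DMSO.

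**Figure D3:**
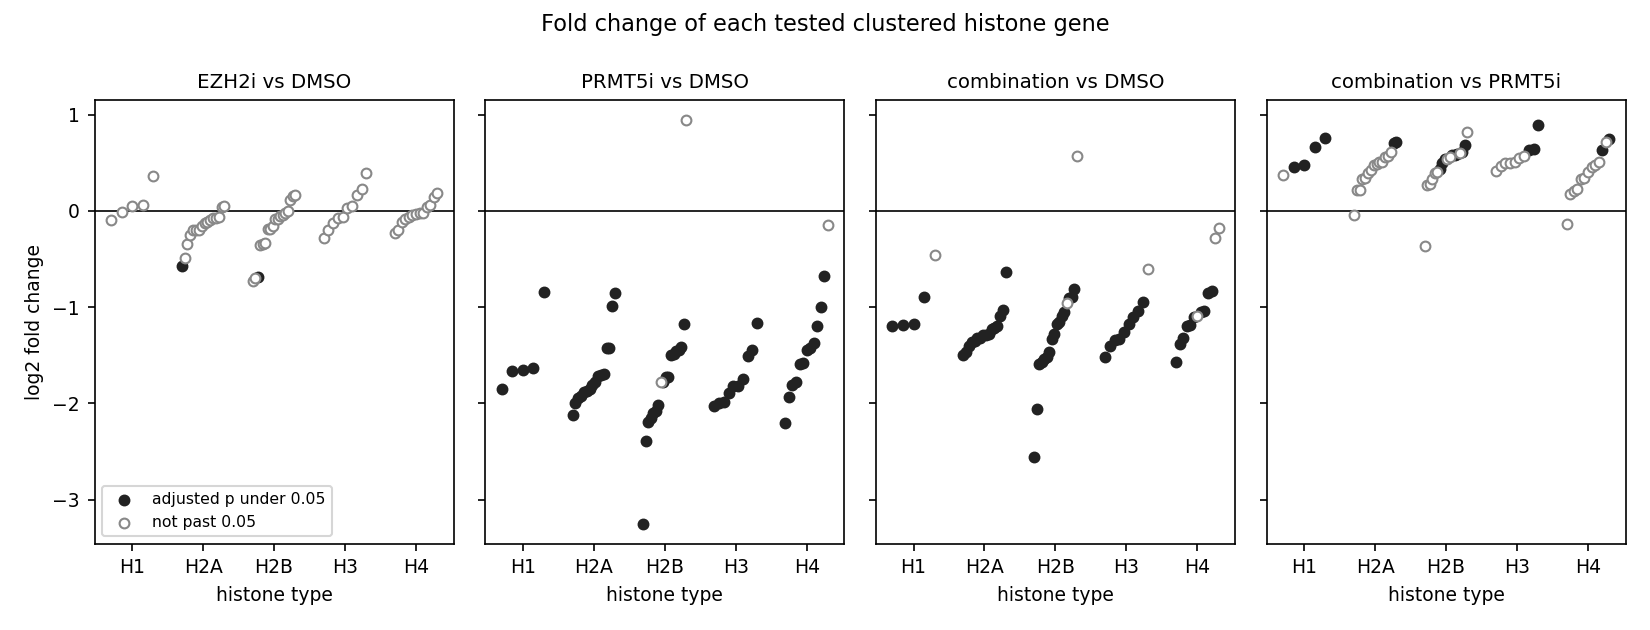
Log2 fold change of each of the 62 tested histone genes by type in 4 comparisons; filled points pass an adjusted p of 0.05 and open points do not. For EZH2i the points lie around 0 (median −0.07) with 2 filled, for PRMT5i 59 are filled around −1.73, for the combination against DMSO 55 are filled around −1.19, and for the combination against PRMT5i 19 are filled, all above 0.

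In the combination against DMSO most members were lower as well. Of 62 tested members, 55 fell and 0 rose, where 36.2% of all tested genes passed (17.6% higher and 18.5% lower), and the median log2 fold change was −1.19. These 55 were all among the 59 that fell with PRMT5i, and the comparisons share their DMSO libraries. A total of 48 members were lower by at least 1 on the log2 scale and 2 by at least 2. These sizes of change were not counted over all tested genes. HIST3H2BB again fell most, by 2.56 (SE 0.17), with 2.16, 2.28, 2.30 and 3.40 CPM in the combination, against 19.1, 14.5, 13.8 and 12.4 CPM with DMSO. HIST1H1B had 262, 229, 278 and 261 CPM in the combination, against 662, 597, 582 and 507 CPM with DMSO, and fell by 1.19 (SE 0.11, adjusted p = 8.37e-07 by edgeR's quasi-likelihood test). HIST2H4A averaged 180 ± 21.4 CPM in the combination and 535 ± 99.4 CPM with DMSO, and fell by 1.57 (SE 0.14). The smallest changes that passed were those of HIST1H2AC at −0.63 (SE 0.12), HIST1H2BF at −0.81 (SE 0.16), HIST1H4E at −0.83 (SE 0.13) and HIST1H4L at −0.85 (SE 0.20).

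The members that did not pass in the combination were HIST1H1A, HIST1H3I, HIST1H4K, HIST2H2BC, HIST2H2BD, HIST2H4B and HIST4H4. HIST1H3I had 52.2, 43.0, 65.6 and 63.6 CPM in the combination, against 44.1, 139, 88.7 and 70.2 CPM with DMSO, and its log2 fold change of −0.61 (SE 0.25) passed at −0.84 without DMSO replicate 1. HIST4H4 had 21.6, 15.4, 19.6 and 17.4 CPM in the combination, against 14.6, 24.2, 29.1 and 22.2 CPM with DMSO, and its −0.28 (SE 0.16) passed at −0.46 without that library. HIST1H4K was uneven within the combination, with 0.496, 0.525, 2.43 and 2.57 CPM, against 2.93, 5.58, 2.04 and 2.13 CPM with DMSO. Without DMSO replicate 1 the count of members that fell was 57, where 5895 of 16831 tested genes passed. Against EZH2i, 57 members fell and 0 rose in the combination, where 28.0% of all tested genes passed (13.4% higher and 14.6% lower), with a median of −1.12. HIST4H4 passed there, with 21.6, 15.4, 19.6 and 17.4 CPM in the combination, against 28.3, 25.2, 25.4 and 24.1 CPM with EZH2i (log2 fold change −0.47, SE 0.16, adjusted p = 0.034 in edgeR).

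**Figure D4:**
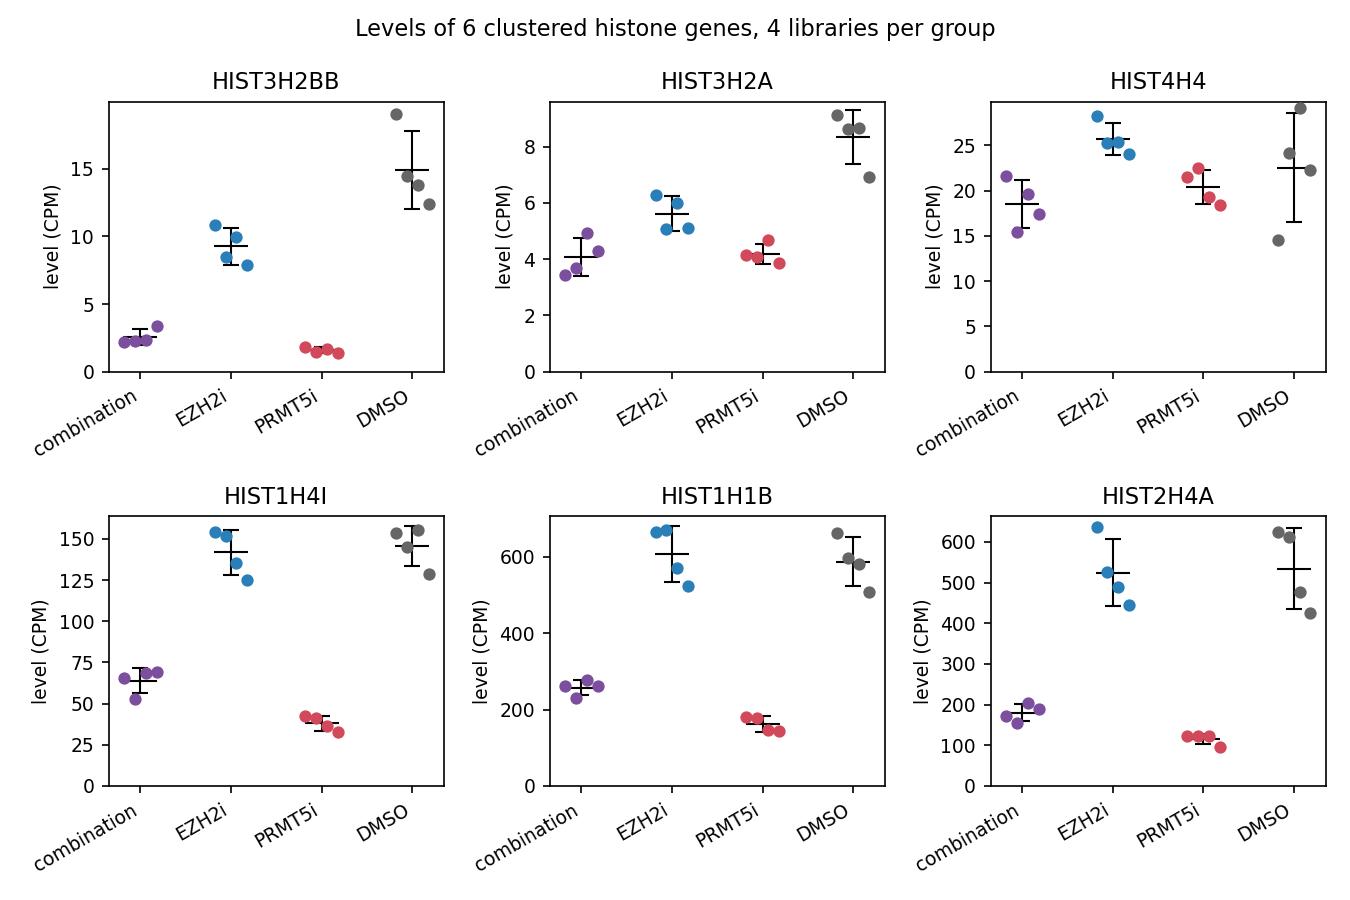
Level in CPM (vertical axes from 0) of 6 histone genes in each of 4 libraries per treatment; points are libraries and black marks are mean ± SD. HIST3H2BB is at 1.34 to 1.83 CPM with PRMT5i and 12.4 to 19.1 CPM with DMSO, its partner HIST3H2A shows a smaller step, the HIST4H4 groups overlap, and HIST1H4I, HIST1H1B and HIST2H4A are higher in the combination than with PRMT5i.

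The combination against PRMT5i asked whether EZH2 inhibition changes these genes in PRMT5-inhibited cells. Of 62 tested members, 19 were higher and 0 lower in the combination, where 4.16% of all tested genes passed (2.91% higher and 1.24% lower). The median log2 fold change was 0.49, against −0.00 over all tested genes, and 59 of 62 were above 0. In 35 of the 62 tested members, every combination library was above every PRMT5i library. Such separation was not counted over all tested genes. HIST1H4I, an H4 gene (ENSG00000276180.1, chromosome 6, 27138588 to 27139881, plus strand), had 65.4, 52.5, 68.7 and 69.0 CPM in the combination, against 42.6, 41.0, 36.2 and 32.7 CPM with PRMT5i. It rose by 0.74 (SE 0.11, adjusted p = 0.00122 in edgeR). HIST1H1B had 262, 229, 278 and 261 CPM in the combination, against 181, 178, 147 and 143 CPM with PRMT5i, and rose by 0.67 (SE 0.11, adjusted p = 0.00297). In both genes the groups stood apart.

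The linker genes HIST1H1C, HIST1H1D and HIST1H1E rose as well, so that 4 of 5 tested H1 genes passed, beside 2 of 16 H2A, 8 of 18 H2B, 3 of 10 H3 and 2 of 13 H4 genes. HIST2H3C rose by 0.89 (SE 0.18), HIST1H1D by 0.76 (SE 0.17), HIST2H4A by 0.64 (SE 0.14), HIST1H3B by 0.64 (SE 0.15), HIST1H3J by 0.64 (SE 0.15) and HIST1H2BM by 0.58 (SE 0.14). HIST3H2A had 3.43, 3.67, 4.91 and 4.31 CPM in the combination, against 4.14, 4.06, 4.68 and 3.85 CPM with PRMT5i, and HIST4H4 had a log2 fold change of −0.14 (SE 0.16), so neither differed beyond the spread. The number of calls depended on the libraries and the fit. It was 41 when the model held these 2 groups alone and 31 in DESeq2. Over all tested genes 2099 of 15829 and 1067 of 15755 passed in these fits. It was 4 without PRMT5i replicate 3, 3 without PRMT5i replicate 4, 8 without PRMT5i replicate 2, 12 without PRMT5i replicate 1, 6 without combination replicate 1 or 4, 4 without combination replicate 3, 12 without DMSO replicate 3 and 11 without EZH2i replicate 3. The count of lower members was 0 in all of these. Without DMSO replicate 1 the count of higher members was 25, where 1011 of 16831 tested genes passed. Over all tested genes 688 passed in the main fit. This number was 263 without PRMT5i replicate 3, 327 without replicate 4, 464 without replicate 2 and 472 without replicate 1. Without combination replicate 1, 4 or 3 it was 393, 438 or 533. Without DMSO replicate 3 or EZH2i replicate 3 it was 587 or 590.

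The interaction is the log2 fold change of the combination over PRMT5i less that of EZH2i over DMSO. Of 62 members, 2 passed, both above 0, where 0.29% of all tested genes passed (0.254% above and 0.0362% below 0), and 61 of 62 had a value above 0 with a median of 0.58, against 0.01 over all tested genes. HIST3H2BB averaged 2.54 ± 0.581 CPM in the combination, 9.28 ± 1.35 CPM with EZH2i, 1.56 ± 0.219 CPM with PRMT5i and 14.9 ± 2.91 CPM with DMSO (SD, n = 4 each). It was higher in the combination than with PRMT5i and lower with EZH2i than with DMSO, and its interaction was 1.37 on the log2 scale (SE 0.24, adjusted p = 0.0173 by edgeR's quasi-likelihood test). HIST1H4I averaged 63.9 ± 7.75 CPM in the combination, 142 ± 13.8 CPM with EZH2i, 38.1 ± 4.52 CPM with PRMT5i and 146 ± 12.02 CPM with DMSO, with an interaction of 0.78 (SE 0.15, adjusted p = 0.0389). HIST3H2BB did not pass without EZH2i replicate 2, PRMT5i replicate 2 or PRMT5i replicate 4, and HIST1H4I passed in 5 of 16 fits that each left out 1 library. Without DMSO replicate 1 the count was 1, where 40 of 16831 tested genes passed.

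Some members are near-identical copies between which RSEM divides reads, so their single values are uncertain. HIST2H4A and HIST2H4B had 535 ± 99.4 and 9.53 ± 2.18 CPM with DMSO, and HIST2H4B fell by 0.68 (SE 0.16) with PRMT5i, while HIST2H4A fell by 2.21. Added together they had 129, 128, 128 and 102 CPM with PRMT5i, against 634, 624, 484 and 434 CPM with DMSO, and fell by 2.16 (SE 0.14). The H2A copies HIST2H2AA3 and HIST2H2AA4 added together had 176, 168, 172 and 153 CPM with PRMT5i, against 672, 603, 564 and 467 CPM with DMSO. Their sum fell by 1.79 (SE 0.13), and its rise in the combination over PRMT5i, 0.36 (SE 0.12), did not pass. The H3 copies HIST2H3A and HIST2H3C summed to 214 ± 32.8 CPM in the combination, 552 ± 103 CPM with EZH2i, 129 ± 11.3 CPM with PRMT5i and 519 ± 87.3 CPM with DMSO. That sum fell by 2.01 (SE 0.15) with PRMT5i and rose by 0.73 (SE 0.15, adjusted p = 0.00971 in edgeR) in the combination over PRMT5i.

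Members that start back to back were compared with each other, and not with unpaired members. A total of 13 such pairs have starts less than 500 bases apart, at 138 to 356 bases, and in 12 of them both genes were tested. HIST1H2BO is paired with both HIST1H2AM and HIST1H3J, and HIST1H2AM shares 88.0% of its exon bases with HIST1H3J on the same strand. With PRMT5i the log2 fold changes of the partners differed by a median of 0.35 without regard to sign, and by 0.07 to 2.26. The narrowest pair was HIST1H2BL with HIST1H2AI, at −1.77 and −1.71. The widest was HIST3H2BB with HIST3H2A, at −3.25 and −0.99, and HIST1H2BC with HIST1H2AC came next, at −1.497 and −0.85. The pairs were described in this way after their values were seen, and the differences between partners were not tested.

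Members also differ in whether their messages are known to gain a poly(A) tail. Of 9 members on a list of these, which includes HIST1H1C, HIST1H2AC, HIST1H2BJ, HIST3H2A and HIST4H4, 8 fell with PRMT5i with a median log2 fold change of −1.49. Of the other 53 tested members, 51 fell with a median of −1.78. The listed genes made up 21.7 ± 0.242% of all member counts with PRMT5i, against 18.6 ± 0.436% with DMSO (SD, n = 4 each), and the PRMT5i libraries were all above the DMSO libraries. The listed genes moved unevenly, from −2.15 for HIST1H2BJ and −1.67 for HIST1H1C to −0.85 for HIST1H2AC and −0.14 for HIST4H4. HIST1H2AC alone averaged 148 of 3231 CPM summed over all members with PRMT5i, against 266 of 10346 CPM with DMSO. The part of single genes in the rise of the listed share was not tested. In the combination 8 of the 9 fell against DMSO (median −1.09), beside 47 of the 53 others (median −1.21).

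Other genes of the histone supply were looked at beside the members. Of 25 genes of S phase and DNA replication, 23 fell and 0 rose with PRMT5i (median −1.20). Over all tested genes 18.3% fell and 17.1% rose with PRMT5i. In the combination 22 of the 25 fell against DMSO (median −0.74), and 15 rose and 0 fell against PRMT5i (median 0.41). Over all tested genes 18.5% fell in the combination against DMSO, and 2.91% rose and 1.24% fell against PRMT5i. CDC45, a part of the replicative helicase, had 20.7, 20.2, 21.1 and 21.3 CPM in the combination, 49.2, 48.1, 50.1 and 43.9 CPM with EZH2i, 14.8, 13.8, 13.0 and 11.2 CPM with PRMT5i, and 47.1, 46.2, 46.7 and 48.7 CPM with DMSO. PRMT5i was lowest and the combination next, while EZH2i and DMSO overlapped, the order also seen for the histone genes summed. The part of S phase in the histone values was not tested. With EZH2i 4 of the 25 rose, among them ORC1 (0.34, SE 0.07) and RRM2 (0.51, SE 0.10), while no histone gene did. Over all tested genes 4.11% rose with EZH2i.

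The genes that make histone messages moved less. Of 24 genes for transcription and 3′ processing of these messages, 11 fell and 1 rose with PRMT5i (median −0.28). Over all tested genes 18.3% fell and 17.1% rose with PRMT5i. SLBP had 62.3, 60.7, 55.5 and 60.3 CPM with PRMT5i, against 111, 73.0, 88.7 and 94.4 CPM with DMSO, and fell by 0.62 (SE 0.11, adjusted p = 0.000296 in edgeR). NPAT fell by 0.44 (SE 0.13), CDK2 by 0.93 (SE 0.08) and CDC25A, a phosphatase that activates CDK2, by 1.20 (SE 0.10). In the combination against PRMT5i SLBP had a log2 fold change of 0.02 (SE 0.11), and 1 of the 24 passed, CDC25A at 0.38 (SE 0.10). Over all tested genes 4.16% passed in that comparison. With EZH2i 0 of the 24 passed in edgeR, where 7.6% of all tested genes did. An unadjusted p under 0.05 in edgeR was found for 5 of the 24, and for 4467 of all 16555 tested genes.

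Histone variants made outside the clusters, which do not depend on replication, fell less than the members. Of 10 tested variant genes, 7 fell and 0 rose with PRMT5i (median −0.43). H2AFZ averaged 179 ± 17.3 CPM with PRMT5i and 456 ± 155 CPM with DMSO and fell by 1.35 (SE 0.18), CENPA, the centromeric H3, fell by 0.84 (SE 0.11), and H3F3B, which encodes H3.3, fell by 0.48 (SE 0.11). Of 21 chaperone genes, which carry new histones to DNA, 10 fell and 4 rose with PRMT5i (median −0.28). For both lists, the shares over all tested genes were 18.3% lower and 17.1% higher with PRMT5i. ASF1B had 19.7, 20.8, 19.9 and 17.5 CPM with PRMT5i, against 40.4, 49.0, 43.4 and 42.2 CPM with DMSO, and fell by 1.17 (SE 0.08). With EZH2i ASF1B and CHAF1B rose, by 0.35 (SE 0.08) and 0.43 (SE 0.12). These lists were described by their counts and medians, and the difference between lists was not tested.

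**Figure D5:**
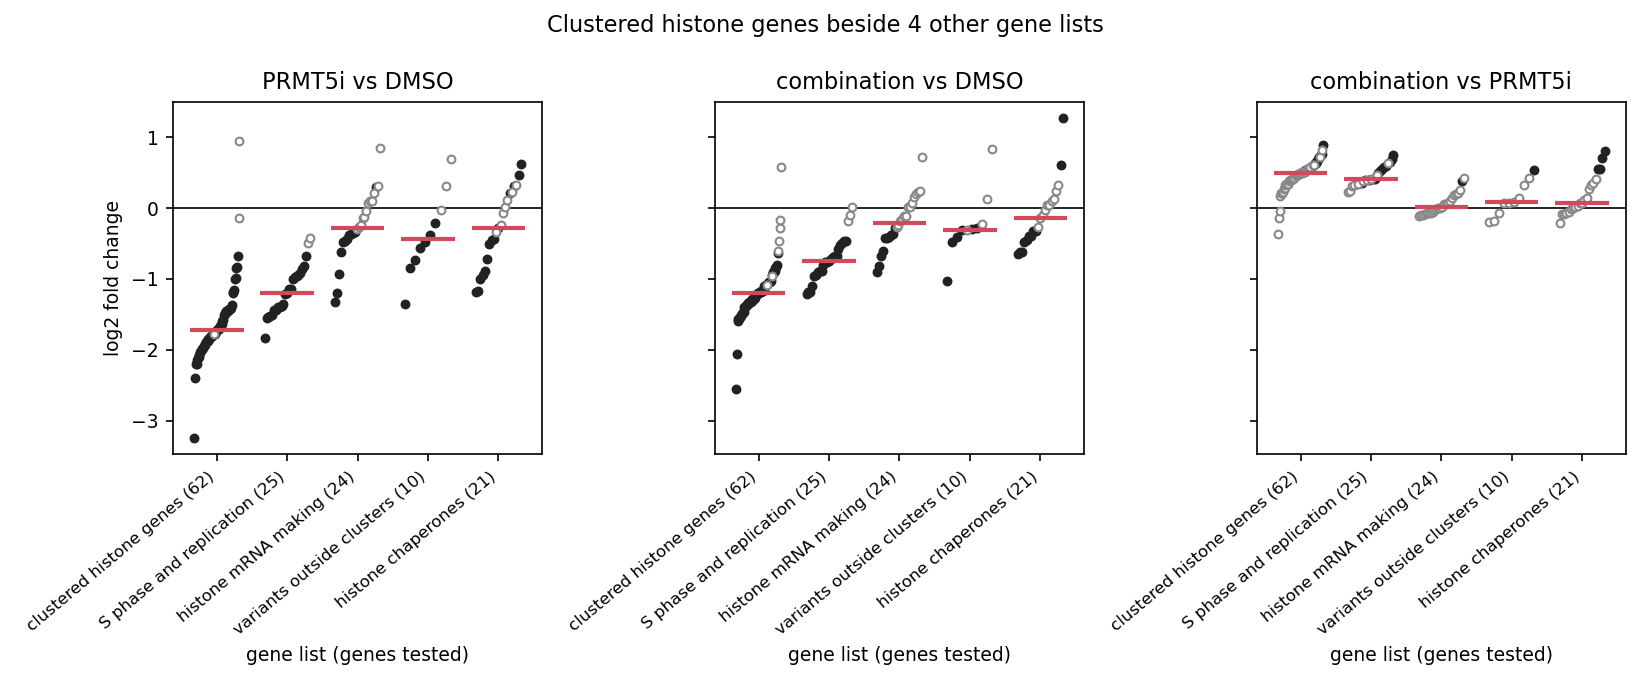
Log2 fold changes of the 62 tested histone genes beside 4 other gene lists in 3 comparisons; filled points pass an adjusted p of 0.05, open points do not, and red bars are medians. With PRMT5i the medians are −1.73 for the histone genes, −1.20 for S phase and replication, −0.28 for the making of histone messages, −0.43 for variants outside the clusters and −0.28 for chaperones.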

How the data were processed

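The authors deposited 1 table of expected counts per gene for the 16 libraries, with no scaling to depth. Reads were aligned with STAR 2.5.3 to GRCh38.p7 with RSEM as the counter, per the submitters' processing notes; the RSEM version, annotation, library kit and strand setting are not given in the sources used here. Of the deposited expected counts 12.0% are not whole, so all were rounded. Genes were kept by filterByExpr of edgeR 4.0.16 (16555 genes), libraries scaled by TMM, and 1 quasi-likelihood model with 4 group means fitted to all 16 libraries; p-values were adjusted by Benjamini-Hochberg over all 16555 genes, with a threshold of 0.05. Adjusted p and SE come from this model unless another fit is named, and those of summed copies come from the fit with copies summed. The SE was derived as the absolute log2 fold change over the square root of the test's F statistic. CPM are counts over the TMM-scaled library size. The fit was tested on simulated data. Alternatives were total-count or DESeq2 size factors, no filter, a replicate block, a term for replicates 1 and 2 against 3 and 4, the compared groups alone, summed near-identical copies, each library left out, and DESeq2 1.42.0. Exons and stem-loops come from GENCODE release 29 and promoters from RefSeq.

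Members and gene lists were chosen with earlier results of these data known. Genes were named by a rule: the 3 most abundant members of each type, all of clusters 3 and 4, the 4 largest and 4 smallest falls with PRMT5i and the combination against DMSO, members that did not pass there, those past the threshold for EZH2i and the interaction, the 8 with the smallest p for the combination against PRMT5i, from each other list the 2 genes with the smallest p for PRMT5i and the 2 for EZH2i, and SLBP, NPAT, EZH2 and PRMT5. Not every gene so chosen is described. Other genes illustrate counts and were chosen after their values were seen. The labels do not say if replicate numbers pair libraries, and the numbers were not used as pairs.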

Additional observations from a re-analysis of the deposited data

Results flagged for a closer look

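Within groups of 4 libraries, 37 named members were looked at in 148 groups for a library far from the other 3, and 6 such libraries were found; chance gives about 1 in 20 groups. PRMT5i replicate 4 was low for HIST1H2AI at 88.2 CPM, against 105 to 107 CPM in the other PRMT5i libraries, and for HIST2H4A at 96.4 CPM, against 122 to 124 CPM. Combination replicate 4 was high for HIST3H2BB at 3.40 CPM, against 2.16 to 2.30 CPM, and combination replicate 1 was high for HIST1H4L at 32.2 CPM, against 20.7 to 22.3 CPM. EZH2i replicate 1 was high for HIST1H1A at 3.67 CPM, against 2.70 to 2.86 CPM. DMSO replicate 1 was high for HIST2H2AA3 at 387 CPM, against 263 to 272 CPM in the other DMSO libraries, and HIST2H2AA3 shares its reads with HIST2H2AA4.

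The effect of EZH2i differed between cells with and without PRMT5i for 2 members by the edgeR interaction test, HIST3H2BB at 1.37 and HIST1H4I at 0.78 on the log2 scale. No explanation was tested.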

How the results depend on the processing

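The counts of members called kept within 1.5 times for PRMT5i against DMSO (56 to 60 over all alternatives), the combination against DMSO (53 to 57) and the combination against EZH2i (55 to 57). For EZH2i against DMSO the count of 2 became 0 with the compared groups alone and was 1 to 3 when single libraries were left out. For the combination against PRMT5i the count of 19 became 31 with total counts only, 31 in the fit with the replicate block, 32 with a term for replicates 1 and 2 against 3 and 4, 41 with the compared groups alone, 31 in DESeq2, and 3 to 27 when single libraries were left out. For the interaction the count of 2 became 4 with the term for replicate pairs, 5 in DESeq2, and 0 to 2 when single libraries were left out. Over all tested genes, the number called for EZH2i against DMSO was 1259 in the main fit. It was 135 with the compared groups alone and 499 to 4591 when single libraries were left out. For the combination against PRMT5i it was 688 in the main fit and 869 with total counts only. It was 857 with the replicate block, 908 with the term for replicate pairs, 2099 with the compared groups alone and 1067 in DESeq2. Leaving out single libraries gave 263 to 1011. The causes of these moves were not tested. The replicate block gave 2 calls for EZH2i, 59 for PRMT5i, 56 for the combination against DMSO, 56 against EZH2i and 3 for the interaction. Same-numbered libraries correlated at −0.272 to 0.236, with 9 of 24 such pairs over 0.1. Of 16 libraries, 8 correlated best with their own number. Among the 4 PRMT5i and combination pairs the values were 0.206, 0.0258, 0.236 and 0.136. These values do not decide if the numbers pair libraries, and the main model did not use them as pairs.

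Of 1717 single-gene values over 72 results, 1655 kept direction and call, 45 lost and 10 gained the call, and 7 changed sign. These 7 belong to 3 genes in comparisons where they did not pass. HIST3H2A in the combination against PRMT5i was at 0.033 with total counts only and at −0.1444 to 0.0338 when single libraries were left out, above 0 without PRMT5i replicate 3 (0.0146) or combination replicate 1 or 2 (0.0035). HIST3H2BA there was at −0.1546 to 0.8344, below 0 without PRMT5i replicate 4 (−0.02) or combination replicate 4. HIST4H4 with PRMT5i was at −0.3155 to 0.0034, above 0 without DMSO replicate 3. Depth limits the 14 untested members and HIST2H2BC, HIST2H2BD and HIST3H2BA, all under 1 CPM.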
